A study of Mus musculus with 21 samples.

Results

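Histone transcripts were followed through 6 mouse cell lines, from fibroblasts to neural stem cells. The members were the probes of an Illumina MouseWG-6 V2 bead array whose gene symbol names a histone of the replication-dependent clusters (H1f, H2ac, H2bc, H3c and H4c genes) or a replacement or variant histone named H1f, H2az or H3f. The rule found 94 probes of 63 genes among 45281 probes and 19057 named genes, and no member probe carried several symbols. Of these, 85 probes belonged to cluster genes, with 7 for H1, 23 for H2A, 18 for H2B, 18 for H3 and 19 for H4. The other 9 belonged to variant genes, with 4 for H1, 2 for H2A and 3 for H3. H2ax, the macroH2A genes and Cenpa are also histones but lie outside these symbols, and they are described separately.

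The 21 arrays held MEF on 4, ES on 3 and NS on 3, and 3 clones of induced neural stem cells, with 3 arrays for iNS2, 4 for iNS3 and 4 for iNS5. MEF are embryonic fibroblasts with an Oct4-GFP (Oct4-GiP) reporter, and the clones numbered 2, 3 and 5 carry the same reporter and were derived from such fibroblasts. The NS line consists of primary forebrain neural stem cells, and ES denotes an embryonic stem cell line. For ES the source field names the fibroblasts again, while title and state say embryonic stem cell. The conversion factors, passage and growth conditions are not given in the sources used here. Arrays of one line are technical replicates by the series text, so p-values between arrays measure technical spread only. Only the 3 clones are separately derived lines, and each other line is a single culture as far as the labels say.

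Most fibroblast, embryonic stem cell and neural stem cell markers were detected in the line they name, and some in other lines as well. All 8 measured fibroblast markers were detected on every MEF array, and 7 of the 8 were on no array of each clone. All 8 embryonic stem cell markers were detected on every ES array, and 9 of 10 neural stem cell markers were on every array of NS and of each clone. Esrrb was also on every array of NS, iNS2 and iNS3 (means 5.6, 6.71 and 6.29, against 13.34 in ES). Dppa5a was also on every NS and iNS5 array (5.51 and 5.67, against 14.97 in ES), as was the fibroblast marker Prrx1. Thy1 and the neuron, myeloid and endothelial markers Stmn2, Laptm5 and Pecam1 were on every ES array. Between 14407 and 16021 probes per array were detected, which means a detection p-value under 0.01. Of the 4 slides, slide 1 carried only MEF (replicates 1 to 3), slide 2 the iNS2 arrays with iNS3 replicates 1 to 3, and slide 3 the ES arrays with iNS5 replicates 2 to 4. Slide 4 carried NS with the last MEF and iNS3 arrays and iNS5 replicate 1.

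Core histones H2A, H2B, H3 and H4 wrap DNA into nucleosomes, and H1 binds the linker between them. Most of this protein is made in S phase from clustered genes, which are present in many near-identical copies and whose mRNAs usually end in a stem-loop rather than a poly(A) tail. Variant genes such as H2az1 and H3f3a lie outside the clusters, make polyadenylated mRNA and are expressed also outside S phase. The labelling kit named in the labels, Ambion MessageAmp, starts its cDNA synthesis from an oligo(dT) primer. Such a primer copies RNA with a poly(A) tail, and the part of this in the differences reported here was not tested. In bulk RNA, fewer cells that express a gene and less RNA per cell cannot be told apart.

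Promoters are shown here for the 2 cluster probes with the largest rise and the largest fall in the clones against MEF (H2ac12 and H4c8) and for the variant probe with the largest difference (H2az1). Each run is the coding strand of a RefSeq window on GRCm38.p6, from 250 bases before to 50 bases after the gene's start. These windows lie at chr13:22035594-22035893 on the minus strand for H2ac12, at chr13:23530794-23531093 on the plus strand for H4c8, and at chr3:137864237-137864536 on the plus strand for H2az1. Capitals mark 4 motifs, read on both strands. The CCAAT box was searched as CCAAT. The letters searched for the TATA box were TATAAA. The octamer motif, which is bound by the Oct factors, was searched as ATTTGCAT. A motif known from H1 gene promoters was searched with the letters AAACACA and is called the H1 box here.
H2ac12: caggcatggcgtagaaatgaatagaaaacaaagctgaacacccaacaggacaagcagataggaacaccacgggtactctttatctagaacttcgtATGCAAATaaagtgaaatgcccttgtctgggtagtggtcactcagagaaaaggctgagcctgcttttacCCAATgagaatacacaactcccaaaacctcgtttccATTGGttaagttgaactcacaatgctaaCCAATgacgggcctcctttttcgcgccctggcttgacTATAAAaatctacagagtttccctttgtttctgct
H4c8: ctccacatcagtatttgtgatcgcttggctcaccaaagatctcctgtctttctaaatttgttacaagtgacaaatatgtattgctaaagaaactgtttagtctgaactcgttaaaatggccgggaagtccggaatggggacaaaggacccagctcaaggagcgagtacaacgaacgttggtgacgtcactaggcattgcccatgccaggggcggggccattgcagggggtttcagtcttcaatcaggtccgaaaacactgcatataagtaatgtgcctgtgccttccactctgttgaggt
H2az1: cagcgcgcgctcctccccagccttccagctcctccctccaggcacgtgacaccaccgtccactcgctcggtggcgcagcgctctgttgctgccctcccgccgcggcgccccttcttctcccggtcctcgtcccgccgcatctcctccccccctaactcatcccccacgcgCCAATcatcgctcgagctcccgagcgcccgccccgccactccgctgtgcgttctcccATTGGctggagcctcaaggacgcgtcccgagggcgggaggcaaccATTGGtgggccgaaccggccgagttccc

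The H2ac12 window held 3 CCAAT boxes, 1 TATA box and 1 octamer, and the H2az1 window held 3 CCAAT boxes. The H4c8 window held no exact match to the letters of the 4 motifs, and near matches were not counted in any window. A RefSeq window was found for 58 of the 63 genes. The CCAAT box stood in 37.4% of 32851 promoters of all genes, in all windows of H1 (6), H2A (16), H2B (12) and H3 (7) cluster genes, and in 3 of 11 of H4 genes. The octamer stood in 1.74% of all promoters, in 6 of 16 H2A and 7 of 12 H2B windows, and in no H4 window. The TATA box stood in 13.6% of all promoters, 11 of 16 for H2A, 6 of 12 for H2B and 8 of 11 for H4. The H1 box stood in 7.18% of all promoters and in 5 of 6 H1 cluster windows. These matches describe letters in a window and say nothing of binding. The motifs and the printed promoters were chosen after expression values were seen.

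Many histone genes are near copies, and probe sequences were not used here, so copies were flagged by their names. RefSeq gives 55 of the 94 probes, and 38 of the 68 that were tested, a gene that shares a symbol or synonym with another member. All 12 H4 genes share names with one another. The same holds for H3c3, H3c4, H3c6, H3c7, H3c13 and H3c14, for H3c1, H3c8 and H3c10, for H2bc4, H2bc6 and H2bc8, for H2bc7, H2bc11 and H2bc15, for H2ac18 and H2ac19, for H1f3 and H1f4, and for H3f3a and H3f3b. Values of these genes are uncertain as values of a single copy, and whether a probe also binds copies with other names was not tested.

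A probe was tested where it was detected on every array of at least 1 line. This left 68 member probes of 47 genes, of which 51 were detected on all 21 arrays. They were 3 for H1, 21 for H2A, 13 for H2B, 11 for H3 and 13 for H4 among cluster genes, and 2, 2 and 3 for H1, H2A and H3 variants. Of the 26 probes left out, 18 were detected on no array, among them a further probe for H4c8 and all probes for the H1 cluster genes H1f3, H1f4 and H1f6. The filter kept 2 probes, both for H4 genes, through a single line, so no share of the tested probes stands for all members.

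The first comparison, clones against MEF, asks how histone transcripts differed between converted cells and the cells they came from. Most H2A cluster probes were far higher in the clones, while H2B and H4 cluster probes were lower. H2A variants, H1f10 and H3f3a were higher. Among the H2A cluster probes, 14 of 21 rose and 4 fell, with a median log2 difference of 4.09. Among H2B probes, 12 of 13 fell and 1 rose, with a median of -1.69. Among H4 probes, 11 of 13 fell and none rose, with a median of -1.80. A falling H4c6 probe (ILMN_2525565) passed the detection filter through MEF alone, where it was high, and without it 10 of 12 H4 probes fell, with a median of -2.03. In all, 53 of 68 member probes were called, 22 higher and 31 lower, at a Benjamini-Hochberg adjusted p under 0.05 in limma over 15972 probes. Of all 15972 probes, 43.3% were called, with 22.3% higher and 20.9% lower, and their median log2 difference was 0.14.

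Many of these calls changed when single clones were left out. Without iNS2, 32 member probes were called, 19 higher and 13 lower, against 20% of all probes. The falling probes were then 3 of 13 for H2B, 7 of 13 for H4 and 0 of 11 for H3, and the H2A cluster gave 14 higher and 3 lower. Of the variant probes, 0 of 3 for H3 were then called, against 2 of 3 with all clones, while the H1f10, H2az1 and H2az2 probes were still called. Median scaling of the arrays gave 24 higher and 21 lower, and the authors' scaled table gave 23 higher and 15 lower, with 3 of 13 H2B probes lower. The share of all probes called under these scalings is not given here, so the counts cannot be read as a trait of histone genes. The medians of the H2A, H2B, H3 and H4 classes kept their sign under each scaling.

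**Figure D1:**
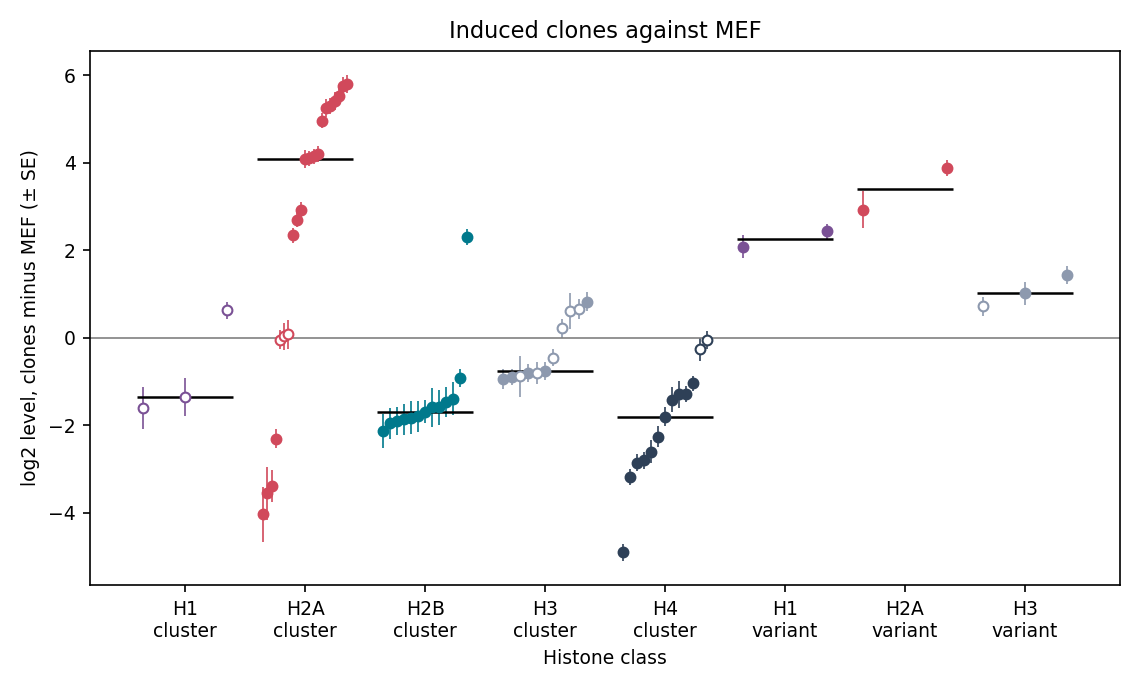
Log2 level in the 3 clones minus MEF for the 68 tested histone probes by class, with bars for the standard error, filled points for probes called at an adjusted p under 0.05, open points for others and black lines for class medians. The H2A cluster splits into 14 probes that rose, 4 that fell and 3 near 0, whereas 12 of 13 H2B probes and 11 of 13 H4 probes fell.

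H2A proteins pair with H2B in the nucleosome. The H2A cluster probe with the largest difference was one for H2ac12 (ILMN_1246108). It read 7.95, 7.91, 7.96 and 8.16 log2 units on the MEF arrays. On the 11 clone arrays it read 13.44 at the lowest, 13.81 at the median and 14.1 at the highest. The clone and MEF arrays did not overlap, and ES (13.87 ± 0.09 SD, n = 3) and NS (13.80 ± 0.11 SD, n = 3) lay within the range of the clones. The difference of clones from MEF was 5.80 ± 0.21 (SE), 55.8-fold, with an adjusted p of 0.00063. The rise of H2ac15 was 54.5-fold (log2 5.77 ± 0.19 SE, adjusted p = 0.00051), from 8.06 to 8.26 on the MEF arrays to between 13.66 and 14.18 on the clone arrays. A probe for H2ac7 (ILMN_2795040) rose 46.4-fold (log2 5.54 ± 0.18 SE, adjusted p = 0.00051).

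The rise was shared by probes for 10 H2A cluster genes, which were H2ac7, H2ac10, H2ac11, H2ac12, H2ac13, H2ac15, H2ac20, H2ac21, H2ac22 and H2ac24. Whether these probes read separate copies was not tested. The called log2 differences of these 10 genes ran from 2.35 to 5.80. The probes of 5 of these genes with the brightest signal (H2ac7, H2ac10, H2ac13, H2ac20 and H2ac24) lay within 0.5 of 15.12, the highest normalised value of any probe, in ES, NS and each clone. Their differences from MEF ran from 2.35 to 4.15, and whether the top of the signal range limited them was not tested.

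Other H2A genes went the other way. H2ac18 is read by 3 tested probes, of which ILMN_1231053 stood at 11.27, 11.35, 11.39 and 11.38 on the MEF arrays. On the clone arrays it ran from 6.44 to 8.33 with a median of 7.09, so the groups did not overlap. It was 16.3-fold lower in the clones (log2 -4.03 ± 0.63 SE, adjusted p = 0.011). A further H2ac18 probe (ILMN_2751948) was lower by at least 11.6-fold, being detected on 10 of 11 clone arrays, and its adjusted p moved from 0.014 to 0.056 without iNS2. With the authors' scaled table these H2ac18 probes had adjusted p values of 0.053 and 0.074. The last H2ac18 probe (ILMN_1228849) differed by 0.08 ± 0.33 (SE). H2ac19, which shares names with H2ac18, was 10.4-fold lower (log2 -3.38 ± 0.37 SE, adjusted p = 0.0047). H2ac4 and H2ac8 had log2 differences of 0.04 ± 0.31 and -0.04 ± 0.22 (SE) and were not called.

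**Figure D2:**
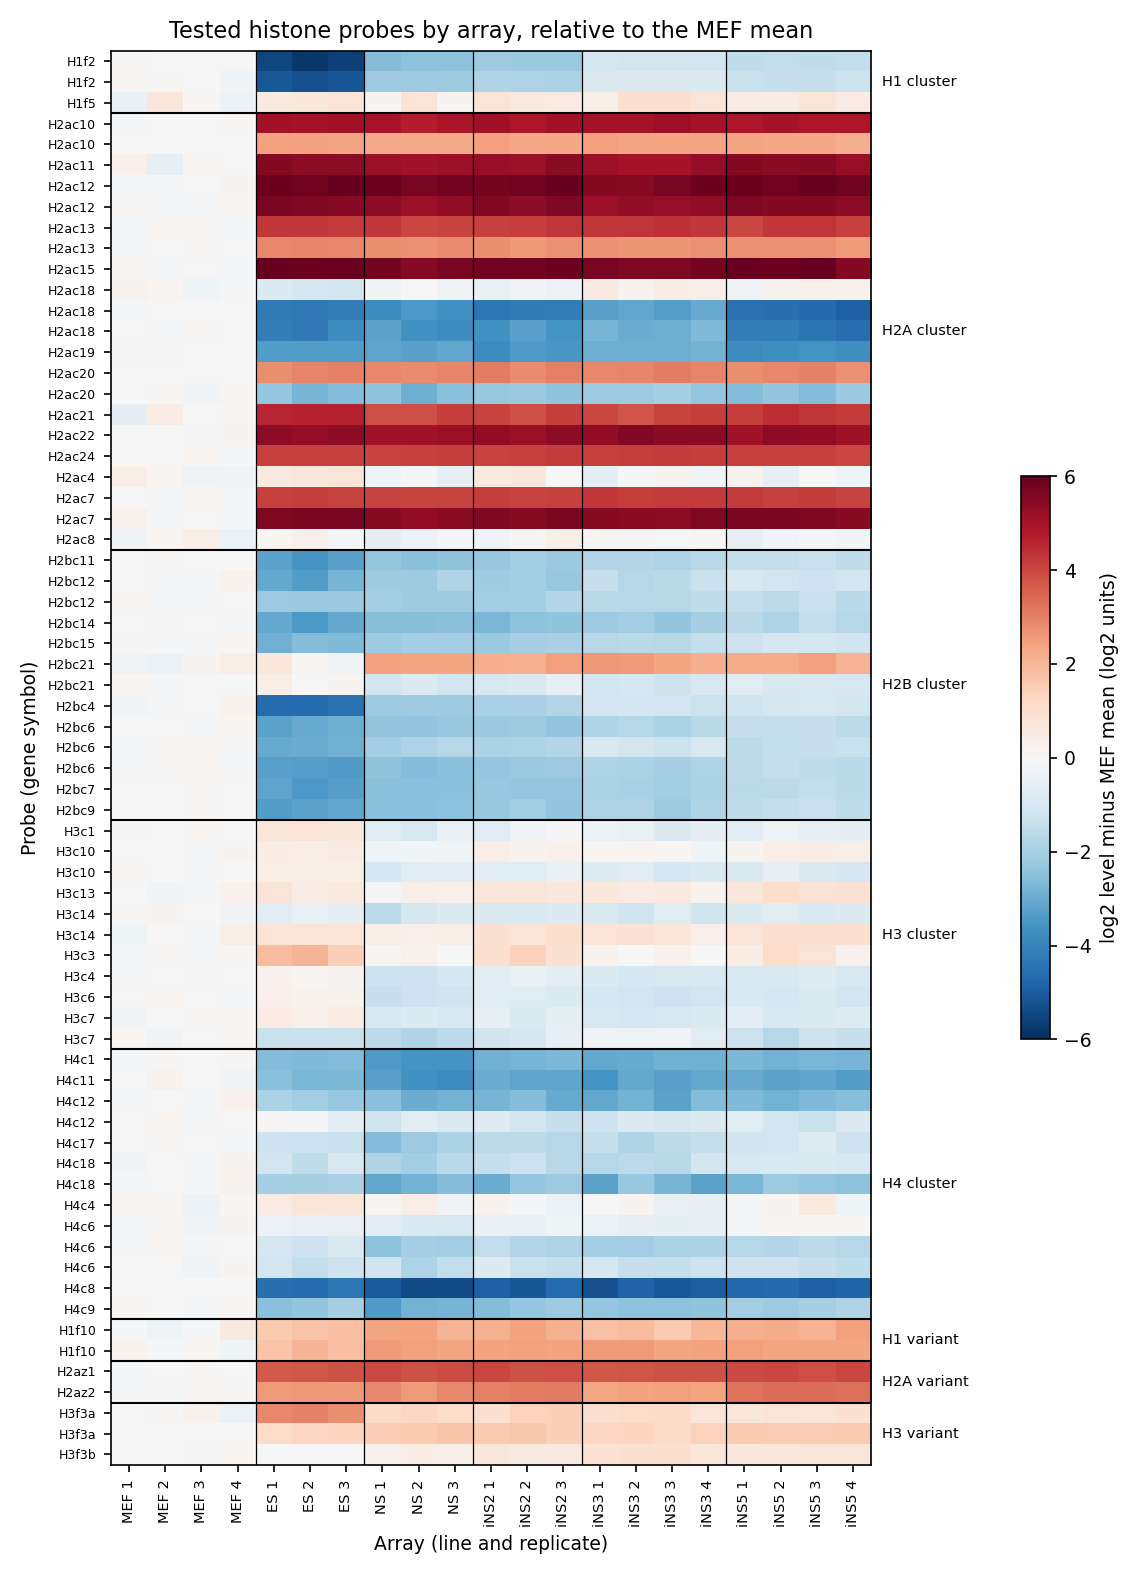
Log2 level of each of the 68 tested histone probes (rows, by class) on each of the 21 arrays (columns, by line), minus the mean of the 4 MEF arrays, with red higher and blue lower than MEF. H2A cluster rows show red in ES, NS and all clones alongside the blue rows of H2ac18, H2ac19 and 1 of the H2ac20 probes, and H1f2 and most H2B rows are bluest in ES.

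H2B falls were smaller and alike in size. H2bc14 read between 10.47 and 10.67 on the MEF arrays and between 7.82 and 9.10 on the clone arrays, with a median of 8.48. It was 4.34-fold lower in the clones (log2 -2.12 ± 0.39 SE, adjusted p = 0.017), and was not called without iNS2. H2bc7 was 3.85-fold lower (log2 -1.95 ± 0.35 SE, adjusted p = 0.016). The 12 falling probes lay between -2.12 and -0.92, and 10 of the 12 had the lowest mean in iNS2 and the highest in iNS5. Of the 13 tested H2B probes, 7 are for genes that share names, so these are not separate readings of an order. No H2B probe was called in any pair of clones, and the share of all probes with this order is not given here. For H2bc7 the mean was 9.81 ± 0.02 (SD, n = 3) in iNS2, 10.17 ± 0.06 (SD, n = 4) in iNS3 and 10.57 ± 0.06 (SD, n = 4) in iNS5, and these clone ranges did not overlap. The exception among H2B genes was a probe for H2bc21 (ILMN_1231066), a member of the smaller cluster on chromosome 3. It was detected on none of 4 MEF arrays and on all 11 clone arrays, and was at least 3.17-fold higher (adjusted p = 0.0024). The other H2bc21 probe (ILMN_1253851) was 1.89-fold lower (log2 -0.92 ± 0.21 SE, adjusted p = 0.031).

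Several H2A and H2B genes of the chromosome 13 cluster start back to back and share a promoter region. Among member genes with a RefSeq window, 6 such H2A and H2B pairs started within 500 bases of each other. Their starts lay 164 to 281 bases apart, and both partners were tested in 4. In all 4 pairs the H2A probe was called higher and the H2B probe lower in the clones than in MEF. The H2A call held in all 4 without each clone and under each scaling, but the H2B call held in only 2 without iNS2 or with the authors' scaled table, and in 3 without iNS3 or with median scaling. H2bc7, H2bc11 and H2bc15 share names with one another, so their probes may not read separate genes. The H2A partners share no names, but whether their probes also bind other copies was not tested. The H2ac12 window printed above covers most of the H2bc12 window, read on the other strand, with starts 178 bases apart. H2bc12 (ILMN_2655785) stood at 10.77, 10.60, 10.61 and 10.67 on the MEF arrays and between 8.59 and 9.33 on the clone arrays, with no overlap, and was 3.23-fold lower (log2 -1.69 ± 0.26 SE, adjusted p = 0.010). Of the other tested pairs, H2ac11 was at least 36.5-fold higher (3 of 4 MEF arrays detected) and H2bc11 lower (log2 -1.79). The rest were H2ac15 with H2bc15 (log2 5.77 and -1.59) and H2ac7 with H2bc7 (log2 4.15 and -1.95). In the pair of H2ac8 and H2bc8, only H2ac8 was tested, and it was not called (log2 -0.04). The pairing of H2A with H2B genes was examined after the values of the probes were seen.

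**Figure D3:**
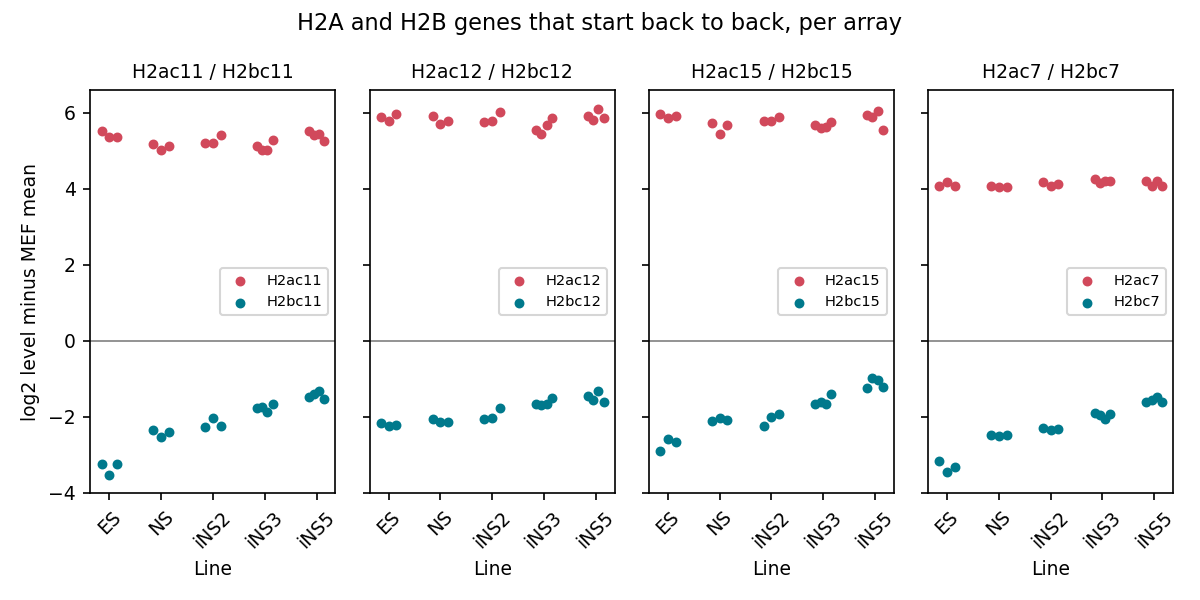
Log2 level minus the MEF mean on each array of ES, NS and the clones for 4 H2A genes (red) and the H2B genes (teal) that start back to back with them. The lowest red point lies at 4.05 and the highest teal point at -0.99, over all 5 lines.

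H3 cluster genes differed least. Of 11 tested probes 4 fell and 1 rose, with a median log2 difference of -0.75. That is 36.4% lower and 9.09% higher, beside 20.9% and 22.3% of all probes, of which 43.3% were called in all. The share of H3 probes called in either direction thus lies near that of all probes. H3c6 read between 9.07 and 9.27 on the MEF arrays and between 7.95 and 8.54 on the clone arrays. It was 1.92-fold lower (log2 -0.94 ± 0.23 SE, adjusted p = 0.036). For H3c14, 1 probe was lower (ILMN_3040069, log2 -0.89 ± 0.19 SE, adjusted p = 0.025) and 1 was higher (ILMN_3136540, log2 0.83 ± 0.21 SE, adjusted p = 0.036). H3c10 (ILMN_2592253) and H3c7 (ILMN_2925169) had log2 differences of 0.22 ± 0.22 and -0.88 ± 0.46 (SE) and were not called, while the other tested probes of H3c10 (ILMN_2698519, log2 -0.75 ± 0.20 SE) and H3c7 (ILMN_2748164, log2 -0.80 ± 0.21 SE) were called lower. The falling H3 probes numbered 0 without iNS2, 2 without iNS3 and 1 without iNS5, and 0 with each array scaled to its median.

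H4 forms the inner tetramer of the nucleosome with H3. The probe for H4c8 showed the largest fall of any member. It read 11.29, 11.33, 11.29 and 11.30 on the MEF arrays, against 6.05 at the lowest, 6.41 at the median and 6.68 at the highest of the clone arrays. ES (6.80 ± 0.14 SD, n = 3) and NS (6.04 ± 0.21 SD, n = 3) were low as well, so MEF stood apart from all other lines. The difference was 29.8-fold (log2 -4.90 ± 0.20 SE, adjusted p = 0.00067). H4c11 was 9.07-fold lower (log2 -3.18 ± 0.18 SE, adjusted p = 0.0010) and H4c1 7.19-fold lower (log2 -2.85 ± 0.19 SE, adjusted p = 0.0015). H4c4 was detected on no MEF array and on 4 of 11 clone arrays, and no fold is given for it. Because all H4 genes share names, these falls are uncertain as values of single copies.

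Linker histone cluster genes gave 3 tested probes and no call. H1f2, a linker histone of most dividing cells, read 13.88, 13.79, 13.80 and 13.79 on the MEF arrays with probe ILMN_2774537. The clones stood at 11.60 ± 0.02 (SD, n = 3) for iNS2, 12.71 ± 0.04 (SD, n = 4) for iNS3 and 12.30 ± 0.01 (SD, n = 4) for iNS5. All clone arrays lay below all MEF arrays, but the spread among clones left the difference outside the call (log2 -1.61 ± 0.48 SE, adjusted p = 0.058), as it did for the other H1f2 probe (-1.35 ± 0.43 SE, adjusted p = 0.069). Both were called lower without iNS3 and in a fit over arrays against a 2-fold change. With slide as a fixed term in that fit, ILMN_2774537 was called (adjusted p = 2.0e-04) and ILMN_2855315 was not (log2 -1.14, adjusted p = 0.22). H1f5, detected on 1 of 4 MEF arrays, was at least 1.05-fold higher and not called (adjusted p = 0.069).

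**Figure D4:**
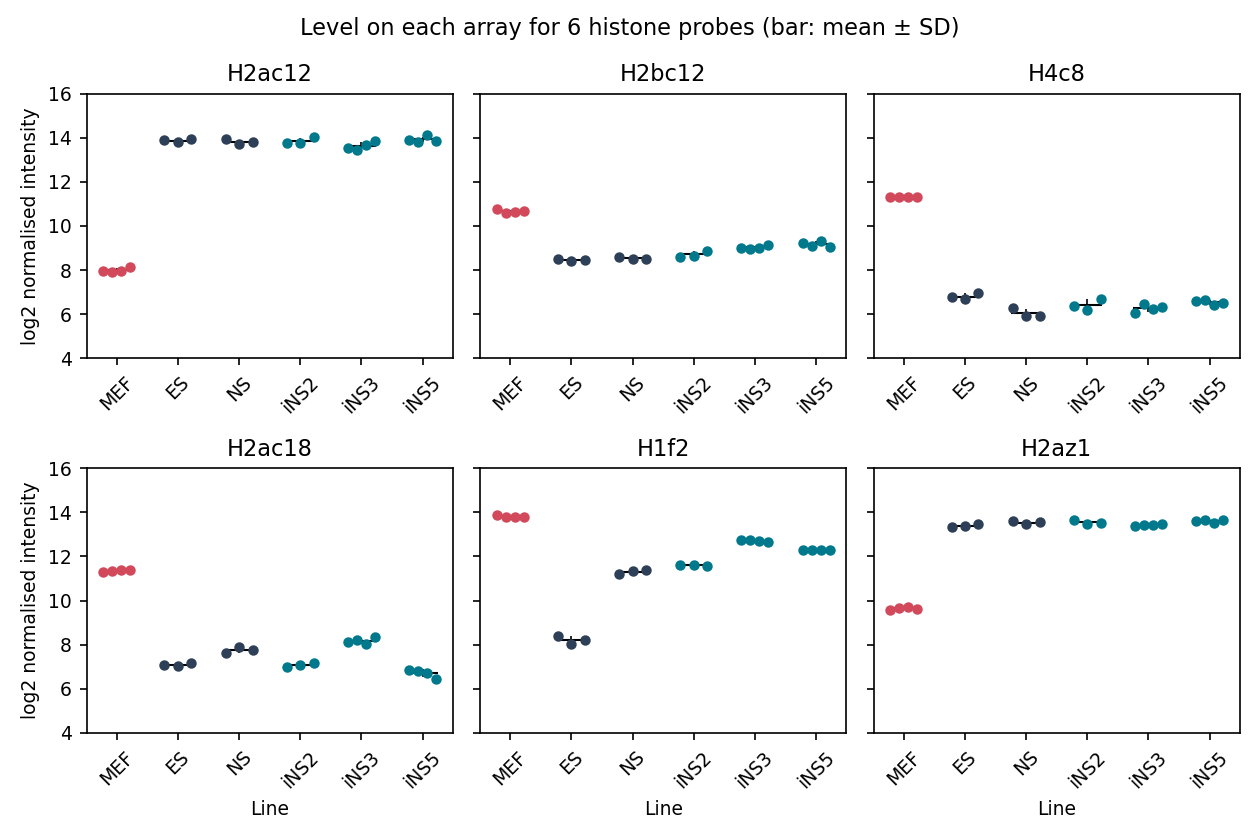
Log2 normalised intensity on each array for 6 histone probes, 1 panel each, with MEF in red, ES and NS in dark blue and the clones in teal, and black bars for the mean ± SD of a line. MEF is lowest for H2ac12 and H2az1 and highest for H2bc12, H4c8, H2ac18 and H1f2, and the clones differ among themselves for H1f2 and H2ac18.

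All 7 tested probes of variant genes had positive differences between clones and MEF, and 6 were called higher. H2az1 encodes H2A.Z, which marks promoters and enhancers. It read 9.59, 9.64, 9.71 and 9.61 on the MEF arrays and 13.37 at the lowest, 13.49 at the median and 13.65 at the highest of the clone arrays. It was 14.7-fold higher in the clones (log2 3.88 ± 0.18 SE, adjusted p = 0.00080), and the means of ES (13.39) and NS (13.53) lay within the range of the clone arrays. H2az2, the other H2A.Z gene, was 7.62-fold higher (log2 2.93 ± 0.42 SE, adjusted p = 0.0088). H1f10, a linker histone outside the clusters, was 5.42-fold and 4.26-fold higher on its probes (adjusted p = 0.0017 and 0.0064). H3f3a, which encodes the replacement form of H3, was 2.71-fold higher on ILMN_3145213 (log2 1.44 ± 0.21 SE, adjusted p = 0.0093) and at least 1.77-fold higher on ILMN_3066986, with 1 of 4 MEF arrays detected. Without iNS2 neither H3f3a probe was called (adjusted p = 0.062 and 0.13), and ILMN_3066986 was also not called without iNS3 (adjusted p = 0.055) or in the fit over arrays against a 2-fold change. H3f3b, which encodes the same protein, differed by 0.72 ± 0.21 (SE, adjusted p = 0.052) and was not called.

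Of 18 genes with several tested probes, 10 had probes whose differences from MEF were apart by over 1 log2 unit. In 3 of them, H2ac20, H2bc21 and H3c14, one probe rose and another fell. The H2ac20 probes differed by 2.92 ± 0.18 (SE, ILMN_1218380) and -2.30 ± 0.21 (SE, ILMN_1254276). Probe sequences that could place them on different transcript ends or copies were not used here.

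Within slide 4, which held 1 array each of MEF, iNS3 and iNS5 and none of iNS2, all 53 called probes kept the sign of their difference. These arrays were among those that gave the calls, so the kept signs are not a separate result. Class medians there were 4.04 for H2A, -1.48 for H2B, -0.80 for H3, -1.83 for H4 and -0.89 for H1 cluster genes. The largest gap to the value from all arrays was 0.65 log2 units and the median gap was 0.16.

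NS and ES were each compared with MEF by array, with a test against a 2-fold change. These comparisons and that of the clones share the MEF arrays, so their values are given side by side and their likeness is not a separate result. In NS, 20 of 68 member probes were higher and 30 lower than in MEF, against 16.4% and 15.8% of all probes (32.2% in all). In ES, 21 were higher and 24 lower, against 21.9% and 21.2% of all probes (43% in all). The H2A cluster gave 14 higher and 4 lower in both, with medians of 3.98 in NS and 4.08 in ES. H2B gave 11 lower of 13 in both, with medians of -2.14 in NS and -3.07 in ES. H4 gave 10 lower of 13 in NS and 6 in ES, with medians of -2.22 and -1.28. With undetected arrays at their bound, these H4 medians were -1.83 and -1.28. The 13 include the H4c6 probe ILMN_2525565, which passed the detection filter through MEF alone, and counts without it are not given here.

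H1f2 and H2bc4 were lowest in ES. H1f2 (ILMN_2774537) read 8.37, 8.03 and 8.20 on the ES arrays and 11.20, 11.33 and 11.37 on the NS arrays, so MEF was highest, then the clones, NS and ES, and no array of one overlapped another of these. It was 49-fold lower in ES than in MEF (log2 -5.61 ± 0.07 SE, adjusted p = 1.0e-21) and 16-fold higher in the clones than in ES (SE of the log2 difference 0.48, adjusted p = 0.0065). H2bc4 (ILMN_1242399) read 7.80, 7.80 and 7.90 on the ES arrays and 10.24, 10.28 and 10.28 on the NS arrays. It was 9.09-fold higher in the clones than in ES (log2 3.18 ± 0.38 SE, adjusted p = 0.0066).

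Between clones and ES, 9 member probes were called higher and 8 lower, against 19.2% and 20.1% of all 15972 probes (39.3% in all). The calls were 2 of 3 H1 cluster probes higher, 7 of 13 H2B probes higher and 1 lower, 5 of 11 H3 probes lower, 1 of 13 H4 probes lower and 1 of 3 H3 variant probes lower. None of the 21 H2A cluster probes was called in limma, with 1 at an unadjusted p under 0.05, and their median was -0.05. The H3 falls were for H3c1, H3c4, H3c6, H3c7 and H3c10, with log2 differences from -1.22 to -0.99. A probe for H3f3a (ILMN_3066986) was lower in the clones than in ES (log2 -1.85 ± 0.26 SE, adjusted p = 0.0093), while the other H3f3a probe differed by 0.24 ± 0.21 (SE). Without iNS2, 5 member probes were called, 4 higher and 1 lower. The share of all probes called in that run is not given here, so the smaller count cannot be read as a trait of histone genes. NS against ES, a comparison that shares the ES arrays, gave 4 member probes higher and 6 lower, against 15.5% and 13.7% of all probes (29.2% in all). They were 2 of 3 H1 cluster probes and 2 of 13 H2B probes higher, and 5 of 11 H3 cluster probes and 1 of 3 H3 variant probes lower.

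The comparison with NS asks how induced cells stand beside neural stem cells from the brain. No member probe was called, against 0.0563% of all probes (9 of 15972), with 0.0125% higher and 0.0438% lower. In limma, 3 of 68 had an unadjusted p under 0.05 (H4c1, H4c9 and H4c17), and a fit over arrays against a 2-fold change also called 0. With a single NS line and 3 clones, this fit can miss differences of several fold, so the count does not show that the lines are alike. The differences ran from -0.43 to 0.91 log2 units with standard errors of 0.17 to 0.63. They were positive for 54 of 68 probes, and the class medians were 0.82 for H1, 0.11 for H2A, 0.50 for H2B, 0.37 for H3 and 0.38 for H4 cluster genes and -0.02 for the variant genes, beside -0.01 for all probes. H4c1 stood at 8.11, 7.97 and 7.98 in NS and between 8.42 and 8.82 in the clones, without overlap, with a difference of 0.63 ± 0.19 (SE, adjusted p = 0.89).

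**Figure D5:**
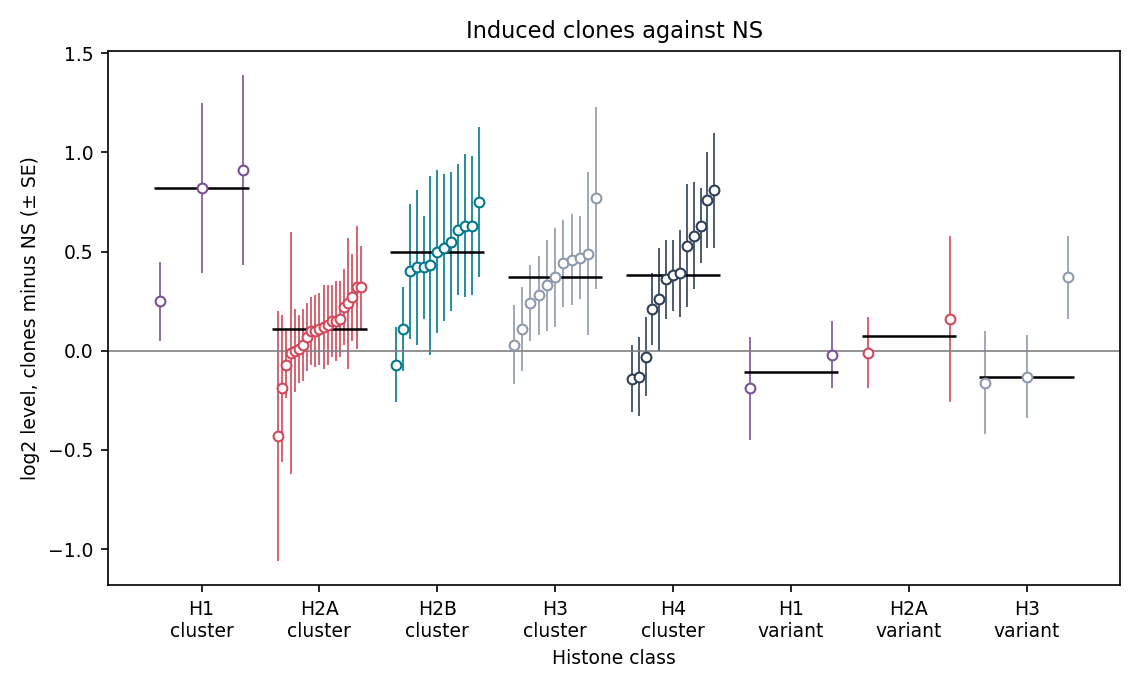
Log2 level in the 3 clones minus NS for the 68 tested histone probes by class, with bars for the standard error and black lines for class medians. All points are open because no probe was called, and 54 of 68 lie above 0.

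By the array test against a 2-fold change, the clones differed from one another only in probes for H2ac18, which shares names with H2ac19. H2ac18 was higher in iNS3 than in iNS5 on both of its brighter probes, which are the only 2 member probes called among the pairs of clones. For ILMN_1231053 the arrays read 8.11, 8.23, 8.03 and 8.33 in iNS3, 6.86, 6.82, 6.70 and 6.44 in iNS5, and 7.08 ± 0.08 (SD, n = 3) in iNS2. The clones did not overlap, and the difference between iNS3 and iNS5 was 1.47 ± 0.09 (SE, 2.76-fold, adjusted p = 8.1e-04). For ILMN_2751948 it was also 1.47 ± 0.14 (SE, adjusted p = 0.034), at least 2.74-fold. Of member probes, 2.94% were called between iNS3 and iNS5, all higher in iNS3. Of all probes, 4.3% were called in that pair, with 1.47% higher and 2.82% lower in iNS3. Between iNS2 and iNS3 it was 0.939%, with 0.432% higher and 0.507% lower in iNS2, and between iNS2 and iNS5 1.61%, with 0.482% higher and 1.13% lower in iNS2. No member was called in the latter pairs by the 2-fold test in limma, with 1 and 0 member probes at an unadjusted p under 0.05. With slide as a fixed term, with normexp background correction at an offset of 50, or with each array scaled to its median, no member was called between iNS3 and iNS5, while both were called with slide as a random block. The median of all probes in that pair moved from 0.02 to -0.14 with median scaling, and from 0.14 to 0.30 for the clones against MEF.

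Genes that act with histones were described through lists of S phase genes, histone chaperones, histone mRNA processing and other histone variants. Each listed gene was read by its brightest tested probe, while the values given for all probes count every tested probe. With the brightest probe per gene, the median of all genes for the clones against MEF was 0.07. Of 33 tested S phase genes 29 were higher in the clones than in MEF and none lower, which is 87.9% higher beside 22.3% of all probes, with a median log2 difference of 2.60 beside 0.14 for all probes. Mcm5, part of the replicative helicase, rose 13.7-fold (log2 3.77 ± 0.19 SE), and Tk1, thymidine kinase, 11.8-fold (log2 3.56 ± 0.31 SE). Pcna, the polymerase clamp, was at least 5.99-fold higher and Cdc6, which loads the helicase, at least 9.40-fold higher. Most H2A cluster probes were also higher in the clones than in MEF, whereas most H2B and H4 probes were lower. The part of the S phase genes in either difference was not tested.

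Of 25 tested chaperones and remodellers, 13 rose and 1 fell (Daxx, an H3 chaperone, log2 -1.31 ± 0.29 SE, adjusted p = 0.028), which is 52% higher, with a median of 1.31. Anp32e, which removes H2A.Z from nucleosomes, rose 13.1-fold (log2 3.72 ± 0.17 SE). Nasp, a chaperone of H3 and H4, rose 8.30-fold, Dek 7.52-fold and Hat1, which acetylates new H4, 7.16-fold. Of 14 tested genes for histone mRNA processing and transcription 4 rose and none fell. That share of 28.6% lies near the 22.3% of all probes, and the median was 0.76, or 0.13 with undetected genes at their bound. Cstf2, a cleavage factor, rose 5.30-fold (log2 2.41 ± 0.23 SE) and Cpsf2, of the same machinery, at least 2.52-fold. Ncbp2 rose 1.97-fold, while Sympk, their scaffold, differed by -1.24 ± 0.43 (SE, adjusted p = 0.083). Of 5 tested variants outside the rule 4 rose, with Cenpa, the centromeric H3, at 11-fold, H2ax, the damage-marked H2A, at 5.68-fold, Macroh2a1 at 2.37-fold and Macroh2a2 at least 2.57-fold, and H2aj differed by -0.34 ± 0.35 (SE).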

How the data were processed

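Total RNA was extracted with QIAGEN RNeasy and made into biotinylated cRNA with the Ambion MessageAmp kit, per the labels' protocols. The submitters' processing notes name GenomeStudio. The authors deposited a linear scanner intensity for each probe and array, background included, with a detection p-value per the file headers. They also deposited a scaled intensity table, a straight-line function of each scanner column with a mean of 379.2, no centring across arrays and unknown background settings (column medians 6.7 to 8.3). No array was dropped and 0 value columns were left unmapped.

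Scanner intensities were normalised with neqc in limma 3.58.1 (R 4.3.3, offset 16) and put on a log2 scale. Of 45281 probes, 34885 carried 1 symbol, 18 several and 10378 none. Tested probes had 1 symbol and a detection p-value under 0.01 on every array of at least 1 line (15972 probes), each fitted on its own. Clones against MEF, NS or ES used line means with the 3 clones as replicates and eBayes against no change, two-sided, with the lone line assumed to vary like the clones. Other comparisons used all 21 arrays and treat against a 2-fold change. Benjamini-Hochberg adjustment ran over all tested probes, with calls under 0.05. A fold is "at least" where the dimmer side was not detected on all arrays, each of which was set at no less than its dimmest detected probe (log2 5.29 to 5.65), a rule chosen after values were seen. How many arrays and clones there were limits the precision. The fits were tested on simulated data, where the fit with clones as replicates missed many probes changed by several fold.

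The members and lists were chosen with earlier results of these data known. Named probes were, per cluster class, the 3 with the largest and the 1 with the smallest clone to MEF difference, all variant probes, called probes between clones and against NS, flagged copies, and up to 4 per other list. H2ac8, H2ac20, H4c6, H2bc12, H2bc21, Daxx, H2aj, Sympk, the paired genes and those named only in counts were added after their values were seen. Plots used matplotlib 3.10.9 and Python 3.11.15.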

Additional observations from a re-analysis of the deposited data

Results flagged for a closer look

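Single arrays stood apart from the rest of their line, by Dixon's gap test, in 3 of 82 groups of 4 arrays, where chance gives about 1 in 20. They were MEF replicate 1 for H2ac7 (ILMN_2795040, 8.76 against 8.38 to 8.45), iNS5 replicate 1 for H2bc21 (ILMN_1253851, 7.58 against 7.35 to 7.38) and iNS3 replicate 4 for H3c10 (ILMN_2592253, 9.94 against 10.3 to 10.33). The H2ac18 probes ILMN_1231053 and ILMN_2751948 differed between iNS3 and iNS5 by 1.47 log2 units each, in a direct test of the pair of clones.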

How the results depend on the processing

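No paired analysis was possible because the labels give the arrays no replicate numbers, and the numbers used here only name arrays. No called direction reversed under any alternative run. The count of member probes called between the clones and ES moved from 17 to 11 with slide as a fixed term. Between NS and ES it moved from 10 to 6 with normexp at an offset of 50 and to 52 with eBayes against no change, which asks for no minimum fold. That test gave 31, 25 and 35 member probes for iNS2 against iNS3, iNS2 against iNS5 and iNS3 against iNS5. The share of all probes called by that test is not given here, so its counts cannot be read as a trait of histone genes. For iNS3 against iNS5 the count moved from 2 to 0 with normexp at an offset of 50, with median scaling and with slide as a fixed term, and to 1 with no detection filter, with probes detected on all 21 arrays and with the brightest probe per gene. The cause was not tested. Leaving out 1 clone or array at a time gave 32 to 50 called probes for the clones against MEF, 0 to 0 against NS, 5 to 18 against ES, 48 to 50 for NS against MEF, 44 to 45 for ES against MEF, 9 to 10 for NS against ES, 1 to 2 for iNS3 against iNS5 and 0 to 0 for the other pairs of clones. The low values of the clones against MEF and ES came without iNS2. Except for the clones against MEF without iNS2, the share of all probes called in these other runs is not given here. Changes in these counts therefore cannot be read as a trait of histone genes. The value of 1 came without iNS3 replicate 1, 3 or 4 or iNS5 replicate 3 or 4. Among values of named probes, 188 kept their side of the threshold under other settings, 25 lost and 11 gained a call. Signal over background limits what can be said of the 26 untested probes.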
